A study of Mus musculus with 6 samples.

Results

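Type I interferon-stimulated genes are the transcripts that cells switch on when interferon alpha or beta binds its receptor. They were followed here through 6 RNA libraries of mouse naive CD4+ T cells, as 46 genes chosen by symbol from the 24470 genes of the deposited count table, all 46 of which were found. Naive CD4+ T cells are helper cells still waiting for their antigen. Magnetic beads were used to purify them from the spleen and the lymph nodes that drain the skin, and the donors were male C57BL/6J mice of unstated age. All 6 samples received the same activating stimulus, a 6 h culture (200 µL per well) over immobilized antibodies, coated at 1 µg/mL, against CD3 of the T cell receptor complex and the costimulatory receptor CD28. In 3 of them (CCL19) the medium also held recombinant mouse CCL19, a chemokine that acts through CCR7. The other 3 (no CCL19) had none added. The labels do not tell whether replicates were separate mice or separate wells, so the spread behind each p-value may be technical in part or in whole.

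The interferon receptor, formed by IFNAR1 and IFNAR2, works through the kinases JAK1 and TYK2. These activate STAT2, which works with IRF9 at a short DNA element, the interferon-stimulated response element, in front of target genes. The proteins made from these genes bind viral RNA, degrade it, restrict virus assembly, attach the ubiquitin-like protein ISG15 to other proteins or feed back on the receptor. T cells carry the receptor, and their interferon-stimulated genes are known to move together when its signal changes.

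In these libraries the interferon-stimulated genes moved together from library to library, inside the groups as well as between them. Every one of the 45 genes with enough counts to test had a fitted log2 fold change above 0 for CCL19 over no CCL19, with a median of 0.41 (1.33-fold) and a range of 0.02 to 0.97; scaling by library totals alone left 43 above 0 and a GC and length offset 44, the exceptions being Slfn1 and, with library totals, Slfn2. By comparison, 49.8% of all 11666 tested genes lay above 0, and their median was close to 0. Yet the median difference between no-CCL19 replicates 3 and 1 was 1.03 on the log2 scale (2.04-fold), more than the difference between the groups. No member was called by edgeR's quasi-likelihood test at an adjusted p under 0.05, which called 0% of all tested genes. The lowest edgeR adjusted p of a member was 0.0722. Over all tested genes the lowest was 0.0505, just above the threshold, so the 0% depends on where the threshold lies. At an unadjusted edgeR p under 0.05, 12 members were higher with CCL19 and none lower, and 14.5% of all tested genes were higher at that level. DESeq2 called 1 member higher and none lower, against 6.55% of the genes with a DESeq2 adjusted p called higher and 5.6% called lower, and limma called 0 members and 0% of all tested genes. With no filter on low counts, edgeR called 30 members, all higher with CCL19, and 5.05% of the 15905 genes in that fit higher. The median SE of the members was then 0.13 in place of 0.21 on the log2 scale, with 85.8 in place of 14.1 degrees of freedom. With a robust prior in edgeR the median SE was 0.30. The member called by DESeq2 was Ly6a, a surface protein of T cells also known as Sca-1. It was also the one tested member in which every CCL19 library lay above every library without CCL19, a separation seen in 15.3% of all tested genes. The opposite separation was seen in no member and in 14.5% of all tested genes.

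The promoters of the members were searched for a core of the response element named above. Genes of this class are known to respond through that element, so a share above that of all genes was likely beforehand. RefSeq promoter windows on GRCm38.p6, from 250 bases before to 50 bases after the start site, were at hand for 33 of the 46 genes, and the search was for GAAANNGAAA, a core of the interferon-stimulated response element, on either strand (TTTCNNTTTC read from the other strand). It was present in at least 1 window of 19 of the 33 members (57.6%), against 1079 of 27025 genes in the whole table (3.99%). Counted over windows of the same length, the motif stood in 22 of 40 member windows (55%) and in 1131 of 32851 windows of the table (3.44%). A match is a run of letters and not a measured binding site. Examples from 6 genes are printed as the 250 bases before the start, 5′ to 3′ on the strand of the gene, with the motif in capitals. Isg15 is shown for its 3 overlapping matches, Ifit1, Ifit3 and Ifit3b for the paired matches of a gene family, Bst2 for a member with a low p, and Slfn2 as the highest-expressed member per length, which has no match.
Isg15, chr4:156200819-156201068, minus strand: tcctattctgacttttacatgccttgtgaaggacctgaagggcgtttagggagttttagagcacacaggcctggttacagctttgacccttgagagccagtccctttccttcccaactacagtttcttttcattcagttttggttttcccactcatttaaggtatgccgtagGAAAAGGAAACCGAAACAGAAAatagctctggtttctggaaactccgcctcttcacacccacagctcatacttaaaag
Ifit1, chr19:34640639-34640888, plus strand: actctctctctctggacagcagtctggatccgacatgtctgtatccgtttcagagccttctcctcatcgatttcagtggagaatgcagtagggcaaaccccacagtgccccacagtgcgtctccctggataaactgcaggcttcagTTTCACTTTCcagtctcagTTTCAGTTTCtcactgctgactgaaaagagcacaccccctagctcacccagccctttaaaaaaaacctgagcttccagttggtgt
Ifit3, chr19:34583279-34583528, plus strand: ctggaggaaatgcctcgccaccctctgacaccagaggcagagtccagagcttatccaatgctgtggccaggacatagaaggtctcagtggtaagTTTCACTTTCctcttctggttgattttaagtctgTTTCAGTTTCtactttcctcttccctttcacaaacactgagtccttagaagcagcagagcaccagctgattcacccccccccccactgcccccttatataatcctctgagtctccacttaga
Ifit3b, chr19:34607707-34607956, plus strand: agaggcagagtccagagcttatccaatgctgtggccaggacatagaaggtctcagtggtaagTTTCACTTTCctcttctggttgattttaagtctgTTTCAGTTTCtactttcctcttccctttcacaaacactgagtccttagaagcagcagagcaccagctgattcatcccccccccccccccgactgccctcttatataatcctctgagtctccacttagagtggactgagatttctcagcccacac
Bst2, chr8:71537473-71537722, minus strand: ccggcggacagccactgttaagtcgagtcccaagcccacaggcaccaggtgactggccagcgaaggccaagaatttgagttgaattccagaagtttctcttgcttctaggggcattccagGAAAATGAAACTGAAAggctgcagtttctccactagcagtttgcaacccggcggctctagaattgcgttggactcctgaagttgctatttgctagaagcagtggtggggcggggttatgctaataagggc
Slfn2, chr11:83064862-83065111, plus strand: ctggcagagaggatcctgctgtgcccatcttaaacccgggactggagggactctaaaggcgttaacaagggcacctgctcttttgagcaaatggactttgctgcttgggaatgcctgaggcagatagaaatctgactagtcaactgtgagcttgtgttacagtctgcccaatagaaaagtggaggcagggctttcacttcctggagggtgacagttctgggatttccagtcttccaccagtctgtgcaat
In Isg15 the first match began 78 bases before the start and the motifs overlapped, so that the capitals form a single run. Ifit1, Ifit3 and Ifit3b each held 2 separate matches on the other strand. The full windows of Ifit3 and Ifit3b shared a run of 169 identical bases that includes both matches. Those of Oas1a and Oas1g shared a run of 73. Each of these genes was still counted as a separate member. Ifih1, Eif2ak2 and Ddx58 had their match after the start site, at 32, 18 and 2 bases. The match in the second window of Trim30a also lay after it, at 2 bases.

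**Figure D1:**
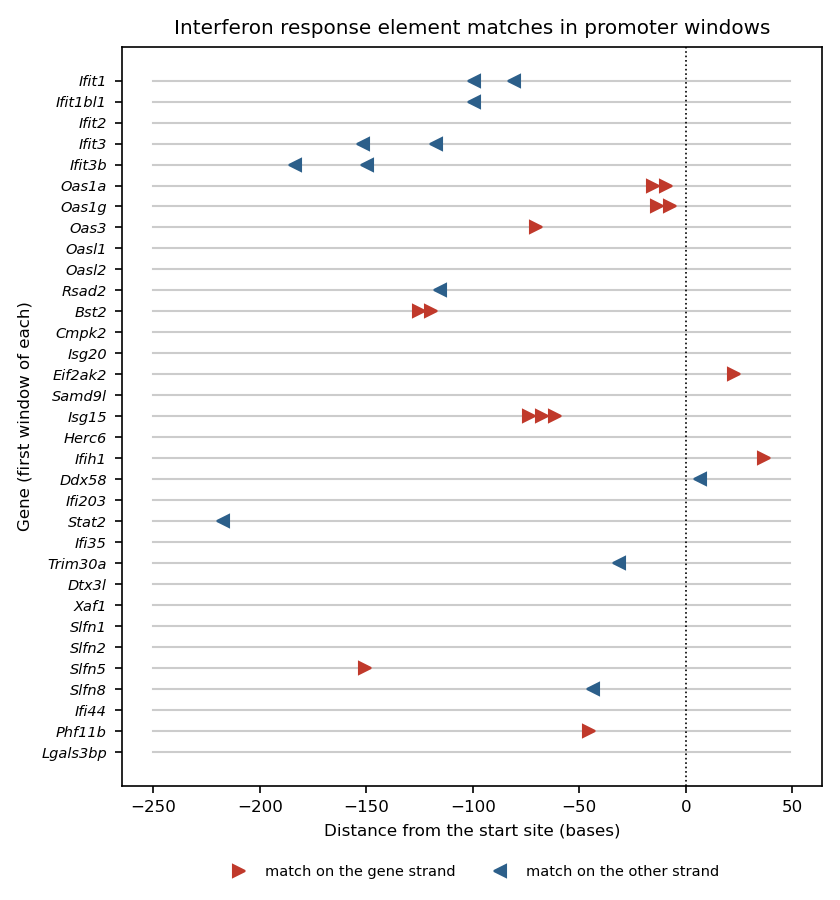
Position of each motif match in the first promoter window of the 33 members with a RefSeq window, as the distance in bases from the start site, where right-pointing marks are matches on the strand of the gene and left-pointing marks are matches on the other strand. Isg15 shows 3 marks and 14 members show none in any window. Ifi203 has its match in another window than the one drawn.

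The 18 tested members with a match had a median log2 fold change of 0.44 and the 14 tested members with a window but no match had a median of 0.34. Their biological coefficients of variation, edgeR's estimates of the spread between replicates beyond counting error, had medians of 17.3% with a match and 15.7% without. These estimates are pulled toward the trend of all genes, so they can lie below or above the spread of the replicates themselves. Ifit1 was given 27.6%, at 58.4 ± 35.5 CPM without CCL19 (mean ± SD, n = 3). Slfn2 was given 7.92%, at 528 ± 16.6 CPM. The ranges, 10.7% to 29.4% with a match and 7.92% to 24.7% without, overlapped widely.

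Depth and purity were as follows. The CCL19 libraries held 16978736, 26980697 and 21509499 counts and the no-CCL19 libraries 23816093, 27429898 and 18203667 counts. Values are given in CPM, the counts of a gene per 1000000 counts of its library, after TMM scaling for differences in library composition, which moved libraries by factors of 0.9792 to 1.016. Summed over 9 markers of CD4 T cells, libraries held 3790 to 4460 CPM with CCL19 and 4210 to 4840 CPM without. B cell markers summed to 15.8 to 21.5 CPM with CCL19 and 20.2 to 23.8 CPM without, and markers of conventional dendritic cells to 3.02 to 4.03 CPM and 3.42 to 4.35 CPM. Plasmacytoid dendritic cells are a main source of interferon alpha. Their 7 markers summed to 127 to 136 CPM with CCL19 and 129 to 140 CPM without, nearly all from Pacsin1 at 117 to 127 CPM with CCL19 and 117 to 130 CPM without. With the other markers so low, this sum cannot be read as a level of these cells. The other tested markers were low and overlapped between the groups: Tcf4 had 3.85, 4.47 and 4.13 CPM with CCL19 and 3.68, 3.39 and 4.51 CPM without, Ccr9 had 2.59, 4.32 and 2.64 CPM and 3.31, 3.53 and 4.67 CPM, and Ly6d had 2.41, 2.4 and 2.69 CPM and 2.98, 2.62 and 2.39 CPM. Too low to test were Siglech, with 3, 4 and 1 counts with CCL19 and 9, 13 and 10 counts without, Cox6a2, with 1 count in all, and Klk1, at 0 in all 6 libraries. In RNA from many cells, fewer cells of a type and less RNA per cell cannot be told apart. The part that other cells may have in the values of the members was not tested.

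Across most members the same libraries stood at the 2 ends, while the order between them was mixed. CCL19 replicate 2 was the highest library for 39 of 45 members (11.1% of all tested genes), and no-CCL19 replicate 1 was the lowest for 41 (27.1% of all tested genes). Both held at once for 39 members and for 5.71% of all tested genes. The most common full order was CCL19 replicate 2, then no-CCL19 replicate 3, CCL19 replicates 3 and 1 and no-CCL19 replicates 2 and 1. It was followed by 18 of the 45 members and by 45 of the 11666 tested genes, these 18 included. This order was read from the same values, so these counts describe it.

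Summed over the members, CCL19 replicates 1 to 3 held 4199, 5872 and 5000 CPM, and no-CCL19 replicates 1 to 3 held 3124, 3997 and 5227 CPM. The groups overlapped, since no-CCL19 replicate 3 lay above both CCL19 replicates 1 and 3. The same overlap holds gene by gene. CCL19 replicate 1 was above no-CCL19 replicate 3 for 2 of 45 members, with a median difference of -0.42 in log2 CPM, and CCL19 replicate 3 was above it for 13 of 45, with a median of -0.07. CCL19 replicate 2 was above it for 40 of 45, with a median of 0.28. Against no-CCL19 replicates 1 and 2, all 3 CCL19 libraries lay mostly higher: CCL19 replicate 2 was higher than either in 45 of 45 members, CCL19 replicate 3 in 45 and 44, and CCL19 replicate 1 in 41 and 32.

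**Figure D2:**
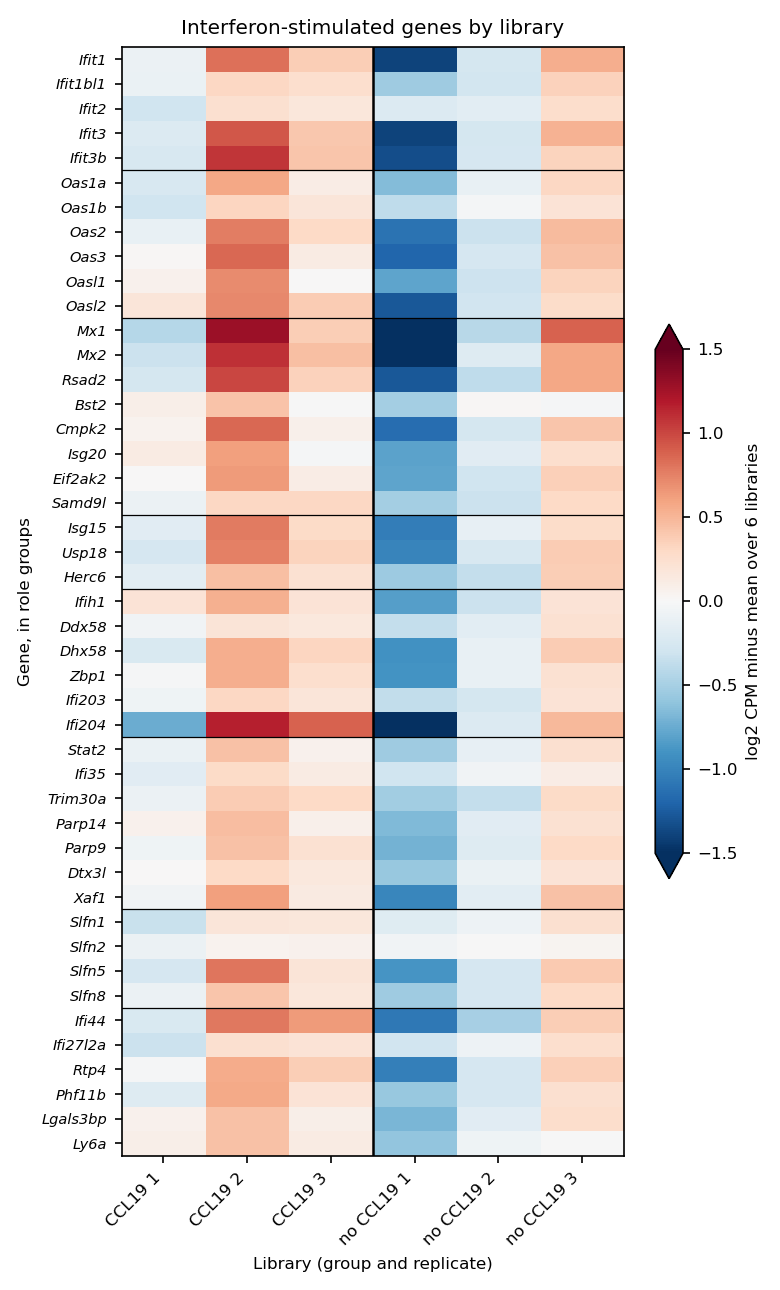
Log2 CPM of each tested member (rows, in role groups) in each library (columns, CCL19 left and no CCL19 right), minus the mean of the gene over the 6 libraries; red is above and blue below the mean, and the color scale stops at 1.5 in either direction. The column of CCL19 replicate 2 is red and that of no-CCL19 replicate 1 blue for nearly every gene, while no-CCL19 replicate 3 is red within the group without CCL19.

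The spread within groups was large for these genes. The median range over the 3 libraries of a group was 0.61 with CCL19 and 1.03 without, in log2 CPM, against 0.22 and 0.23 over all tested genes. The range without CCL19 was larger than the difference between the group means in 45 of 45 members, against 68.8% of all tested genes, and the range with CCL19 was larger in 38, against 67.4%. In no member did the difference exceed both ranges, which it did for 17.5% of all tested genes. The biological coefficient of variation was above the all-gene median of 8.46% in 44 of 45 members, and above the all-gene 90th percentile of 17.1% in 23 of them. It ran from 7.92% in Slfn2 to 39.6% in Mx1. Members were somewhat more abundant than the average gene, with a median of 5.84 against 5.04 in log2 CPM.

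**Figure D3:**
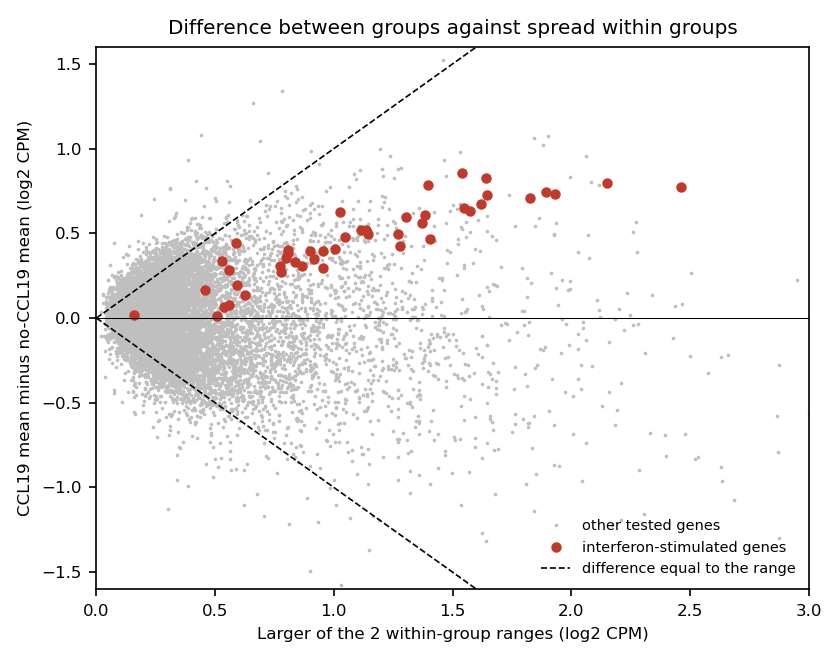
Difference between the mean log2 CPM with CCL19 and without (vertical axis) against the larger of the ranges within the groups (horizontal axis) for the tested members (red) and all other tested genes (grey); beyond the dashed lines the difference exceeds the range. With TMM scaling all red points lie above 0 and between the dashed lines; 6 of 11666 points fall outside the axes.

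The IFIT proteins bind foreign RNA and lie as a cluster on chromosome 19, from position 34550694 to 34650009 of mm10 for the 5 members here. Ifit1, which holds RNA lacking the normal cap methylation, had 61.5, 116 and 84.3 CPM with CCL19, against 25.0, 54.4 and 95.7 CPM without. The groups overlapped, and the 3.82-fold span within the group without CCL19 was wider than the 1.51-fold ratio of the fit, whose log2 fold change was 0.60 ± 0.32 (SE; edgeR adjusted p = 0.249). Ifit1bl1, a paralog of Ifit1, had 80.1, 107 and 102 CPM with CCL19 and 59.5, 71.1 and 109 CPM without. Its highest library was one without CCL19. Ifit2, another RNA-binding member, had 64.5, 93.6 and 89.2 CPM with CCL19 and 68.7, 71.4 and 95.6 CPM without, and the groups covered almost the same span (log2 fold change 0.08 ± 0.14; edgeR adjusted p = 0.752). Ifit3b had the largest fitted change of the family, with 7.82, 19.5 and 12.4 CPM with CCL19 and 3.68, 7.79 and 11.7 CPM without (log2 fold change 0.83 ± 0.33; edgeR adjusted p = 0.127). CCL19 replicate 1 lay below no-CCL19 replicate 3 here too. Ifit3, its neighbour, ran from 13.9 to 68.9 CPM over the 6 libraries. Of the 50-base stretches of its transcripts, 51.24% also occur in Ifit3b, and the labels do not say how the counting treated reads that match both, so the division of reads between this pair is uncertain.

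The OAS enzymes sense double-stranded RNA, and the active ones make oligoadenylates that switch on the nuclease RNase L. Their genes stand on chromosome 5, Oas1a, Oas1b, Oas1g, Oas2 and Oas3 between positions 120730333 and 120907525, and Oasl1 and Oasl2 between 114896934 and 114937911. Oasl2 had one of the smallest p-values of the members, with 52.6, 76.2 and 60.2 CPM with CCL19, against 19.2, 37.8 and 56.1 CPM without. Its group means were 63.0 ± 12.1 and 37.7 ± 18.4 CPM (SD, n = 3 each), and one library of each group crossed the other, CCL19 replicate 1 lying below no-CCL19 replicate 3 (log2 fold change 0.76 ± 0.25; edgeR adjusted p = 0.0837). Oas2 had 52.9, 97.5 and 70.6 CPM with CCL19 and 26.6, 46 and 79.3 CPM without. Oas3 had 57.2, 103 and 61.7 CPM with CCL19 and 24.8, 47.3 and 76.5 CPM without. In both, no-CCL19 replicate 3 stood above CCL19 replicates 1 and 3, and their edgeR adjusted p-values were 0.215 and 0.2. Oas1b was flatter, with 40.9, 63.0 and 56.8 CPM with CCL19 and 38.6, 49.3 and 57.8 CPM without (log2 fold change 0.15 ± 0.15; edgeR adjusted p = 0.543). Oas1g was the one member too low to test, with 2, 0 and 0 counts with CCL19 and 2, 0 and 1 counts without. It shares 45.25% of its 50-base stretches with Oas1a, so that its few counts and those of Oas1a, at 5.58 to 13.1 CPM, are uncertain in the same way.

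Among the antiviral effectors, the dynamin-like GTPases Mx1 and Mx2 were the most scattered. Mx1, of which many laboratory strains of mouse carry a defective allele, had 2.35, 7.7 and 4.08 CPM with CCL19, against 0.992, 2.37 and 5.86 CPM without, from 39, 205 and 88 counts and 24, 65 and 108 counts. The span within the group without CCL19 was 5.91-fold, and the fitted log2 fold change was 0.72 ± 0.47 (edgeR adjusted p = 0.343). Mx2 had 4.57, 12.2 and 7.84 CPM with CCL19 and 1.86, 5.02 and 8.58 CPM without (log2 fold change 0.74 ± 0.39; edgeR adjusted p = 0.238). Bst2, or tetherin, which holds budding virus at the cell surface, had the lowest biological coefficient of variation of this group, 11.5%, with 67.3, 84.9 and 63.2 CPM with CCL19 and 44.5, 64.2 and 62.5 CPM without. Only no-CCL19 replicate 2 stood above the lowest CCL19 library, by a small margin, and the log2 fold change was 0.34 ± 0.13 (edgeR adjusted p = 0.125; DESeq2 adjusted p = 0.0857). Samd9l, an interferon-induced restriction factor, had 139, 184 and 184 CPM with CCL19 and 104, 119 and 182 CPM without. Eif2ak2, the RNA-activated kinase PKR that stops translation, had 33.6, 52.0 and 36.2 CPM with CCL19 and 19.3, 27.2 and 42.8 CPM without. In both, no-CCL19 replicate 3 lay inside the range of the CCL19 libraries. The remaining effectors had the same ends: Rsad2 (viperin) and Cmpk2, neighbours on chromosome 12, and the nuclease Isg20 had their highest value in CCL19 replicate 2 and their lowest in no-CCL19 replicate 1.

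Isg15 is the ubiquitin-like modifier, Usp18 removes it and also blocks the interferon receptor, and Herc6 is its ligase in the mouse. Isg15 had 25.2, 48.6 and 34.7 CPM with CCL19, against 13.8, 26.0 and 34.2 CPM without. Usp18 had 28.4, 57.1 and 42.6 CPM with CCL19 and 17.0, 28.5 and 44.1 CPM without. Herc6 had 37.4, 57.2 and 49.1 CPM with CCL19 and 28.7, 32.7 and 54.2 CPM without. All 3 genes had the highest value in CCL19 replicate 2 and overlapping groups, with log2 fold changes of 0.57 ± 0.26, 0.54 ± 0.27 and 0.33 ± 0.19 and edgeR adjusted p-values of 0.166, 0.207 and 0.287.

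The sensors detect viral nucleic acid. Ifih1, or MDA5, a helicase that recognizes long double-stranded RNA, had 66.5, 83.8 and 66.4 CPM with CCL19, against 32.7, 46.2 and 66.7 CPM without. The overlap was as narrow as the values allow, because no-CCL19 replicate 3 exceeded CCL19 replicates 1 and 3 in the last digit shown, and the log2 fold change was 0.58 ± 0.18 (edgeR adjusted p = 0.0722; DESeq2 adjusted p = 0.213). Ddx58, or RIG-I, the related sensor of short RNA ends, had 127, 151 and 147 CPM with CCL19 and 103, 118 and 155 CPM without. Zbp1, a sensor of Z-form nucleic acid, had 244, 359 and 294 CPM with CCL19 and 132, 228 and 290 CPM without. Ddx58 had its highest library in the group without CCL19, and Zbp1 in the group with it. Ifi203 and Ifi204 belong to the PYHIN family of DNA-binding proteins. Ifi203 had 177, 230 and 210 CPM with CCL19 and 144, 155 and 213 CPM without. Ifi204 had the largest fitted change of all members, 0.97 ± 0.53 on the log2 scale, from 5, 30 and 20 counts with CCL19 and 4, 12 and 13 counts without (edgeR adjusted p = 0.254). At such counts the 95% interval of the fold ran from 0.888 to 4.31, and 20.02% of its 50-base stretches occur in other genes.

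Stat2 is the member that carries the receptor signal to DNA. It had 164, 239 and 185 CPM with CCL19 and 122, 162 and 209 CPM without, with a log2 fold change of 0.26 ± 0.16 (edgeR adjusted p = 0.313). Parp14, an ADP-ribosyltransferase, had 399, 524 and 400 CPM with CCL19 and 240, 340 and 448 CPM without. Dtx3l, the ubiquitin ligase that works in a complex with Parp9, had 223, 273 and 246 CPM with CCL19 and 149, 206 and 255 CPM without. In all 3, no-CCL19 replicate 3 was the second highest library. Parp9 and Dtx3l lie on opposite strands, and their whole gene regions overlap by 558 bases. The labels do not say whether counting used strand, so any reads in the overlap cannot be assigned to either gene. Parp14, Parp9 and Dtx3l lie together on chromosome 16 between positions 35832878 and 35972621.

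The Schlafen genes, a cluster on chromosome 11 between positions 82952102 and 83122659 for these members, were uneven. Slfn2, which in the mouse keeps resting T cells quiescent, had 498, 552 and 556 CPM with CCL19, against 512, 527 and 545 CPM without. Its groups lay on top of each other, the log2 fold change was 0.02 ± 0.08, and the 95% interval of the fold ran from 0.901 to 1.14 (edgeR adjusted p = 0.896). Slfn1 had 322, 459 and 454 CPM with CCL19 and 357, 384 and 476 CPM without, and CCL19 replicate 1 was its lowest library (log2 fold change 0.02 ± 0.13; edgeR adjusted p = 0.932). The positive sign of both is not stable: with scaling by library totals alone the log2 fold changes were -0.00546 for Slfn1 and -0.00795 for Slfn2. Slfn8 had 119, 169 and 142 CPM with CCL19 and 87.4, 106 and 156 CPM without. Slfn5 ran from 62.7 to 201 CPM, with its top in CCL19 replicate 2 and its lowest value in no-CCL19 replicate 1.

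Ly6a, on chromosome 15 at positions 74994877 to 74998031, is a surface protein that T cells raise in response to interferon and on activation. It had 211, 269 and 216 CPM with CCL19, against 131, 190 and 197 CPM without. Every CCL19 library lay above every library without CCL19, at means of 232 ± 32.1 and 172 ± 36.1 CPM (SD, n = 3 each). The log2 fold change was 0.43 ± 0.13, a fold of 1.35 with a 95% interval of 1.11 to 1.64, and the edgeR adjusted p was 0.0722. With DESeq2 the adjusted p was 0.0202. Ly6a is also the one member in the authors' deposited table of changed genes, listed there as higher with CCL19. That list and the DESeq2 calls made here are the same 1168 genes from the same counts, so the listing is no further evidence. The DESeq2 call held when no-CCL19 replicate 3 was left out (adjusted p = 0.00537) and was lost when any other library was, with adjusted p-values of 0.27, 0.204 and 0.194 without CCL19 replicates 1, 2 and 3 and of 0.121 and 0.198 without no-CCL19 replicates 1 and 2. Of the 50-base stretches of Ly6a, 18.97% occur in other genes, 15.03% in Ly6c1.

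Ifi44, a cytoplasmic interferon-induced protein, had 3.43, 6.95 and 6.26 CPM with CCL19, against 1.9, 2.84 and 5.16 CPM without (log2 fold change 0.81 ± 0.31; edgeR adjusted p = 0.117; DESeq2 adjusted p = 0.0857). CCL19 replicate 1 fell between no-CCL19 replicates 2 and 3. Lgals3bp, a secreted glycoprotein, had 123, 160 and 125 CPM with CCL19 and 73.2, 105 and 142 CPM without. Ifi27l2a, a small interferon-induced mitochondrial and nuclear-envelope protein, had 111, 163 and 159 CPM with CCL19 and 113, 131 and 165 CPM without (log2 fold change 0.09 ± 0.14; edgeR adjusted p = 0.735). Its groups covered nearly the same span. Its whole gene region overlaps that of Ifi27 on the opposite strand by 6057 bases. The exons of Ifi27l2a come to only 463 bases, and the overlap of exons was not measured. For the 14 tested members described by ranges, among them Rtp4, Xaf1, Trim30a and Phf11b, log2 fold changes lay between 0.17 and 0.67 and edgeR adjusted p-values between 0.163 and 0.378.

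**Figure D4:**
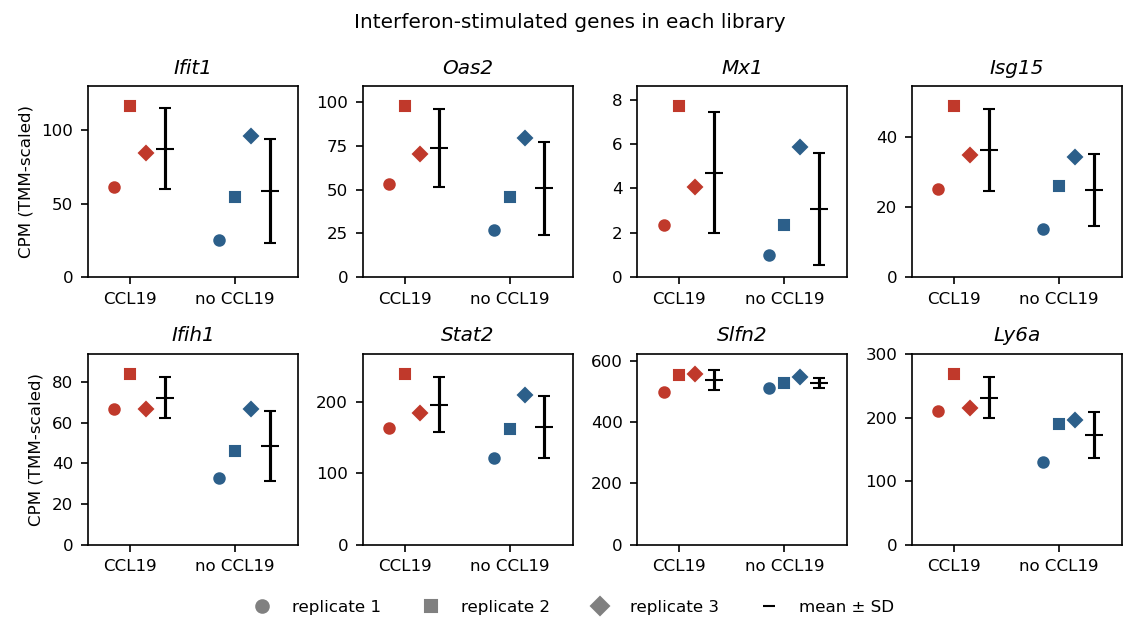
CPM (TMM-scaled, linear axes from 0) of 8 members in each library, with CCL19 on the left and no CCL19 on the right of each panel; marker shape gives the replicate and the black bar the mean ± SD of 3 libraries. The groups overlap in 7 panels, Slfn2 is flat, and Ly6a alone has every CCL19 library above every library without CCL19.

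By role, the median log2 fold change was 0.60 for IFIT genes, 0.54 for OAS genes, 0.54 for antiviral effectors, 0.54 for the ISG15 system, 0.43 for sensors, 0.37 for signalling genes and 0.17 for Schlafen genes. The median biological coefficient of variation followed a similar order at the ends, 27.6% for IFIT genes and 13.2% for Schlafen genes. Levels compared per kilobase of exon put Slfn2 first at 320 CPM per kilobase, then Ifi27l2a at 303, Slfn1 at 219 and Ly6a at 168, and Zbp1 and Bst2 next at 73.0 and 71.4. The lowest tested members were Mx1 at 1.03, Ifi44 at 0.722 and Ifi204 at 0.171 CPM per kilobase.

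The size of the group difference depended on which library was included. Without no-CCL19 replicate 1, the median log2 fold change of the members was 0.22, and without CCL19 replicate 2 it was 0.24. Without no-CCL19 replicate 3 it was 0.70, edgeR called 13 members, among them Ifih1, Oasl2, Oas2, Eif2ak2 and Ifi44 (1.98% of all genes in that fit were called higher), and 29 of 45 members had groups that did not overlap (21.5% of all genes). Without CCL19 replicate 3, edgeR called 2 members, Ifih1 and Ly6a, and 6.5% of all genes higher. Without any of the other 4 libraries it called none. The count of members higher at an unadjusted p under 0.05, which was 12 with all libraries, was 40, 3 and 15 without CCL19 replicates 1, 2 and 3 and 3, 4 and 39 without no-CCL19 replicates 1, 2 and 3, against 7.65% to 15.2% of all genes in these fits. The labels name no fault of that library or of any other.

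**Figure D5:**
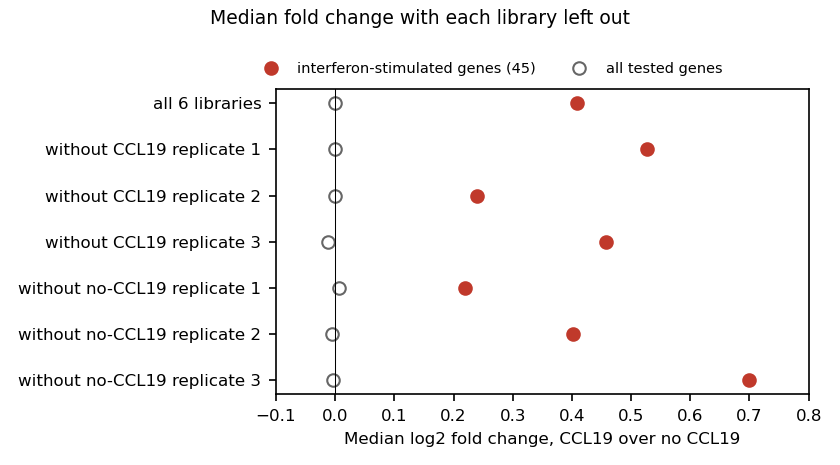
Median edgeR log2 fold change of CCL19 over no CCL19 over the tested members (filled) and over all tested genes (open), with all 6 libraries and with each library left out. The filled points run from 0.22 without no-CCL19 replicate 1 to 0.70 without no-CCL19 replicate 3, and the open points stay near 0.

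The genes upstream of the members lay on both sides of 0. Of 54 listed genes for interferons, receptors, kinases, transcription factors, inhibitors and sensing adaptors, 33 were tested, with 17 fitted higher and 16 lower and a median log2 fold change of 0.07. edgeR called 0, with 10 at an unadjusted p under 0.05 in either direction, against 27.5% of all tested genes. DESeq2 called 3 higher and 1 lower, against 6.55% and 5.6% of all genes with a DESeq2 adjusted p, so that these shares were near those of all genes. Interferon transcripts were scarce: 16 of 21 listed interferon genes were at 0 in all 6 libraries, and Ifnb1, which encodes interferon beta, had 9 counts in all. Ifng, the type II interferon made by T cells, had 1.81, 2.63 and 1.39 CPM with CCL19 and 0.744, 1.71 and 1.41 CPM without (log2 fold change 0.61 ± 0.34; edgeR adjusted p = 0.266).

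The receptor chain Ifnar1 had 160, 177 and 194 CPM with CCL19 and 206, 178 and 195 CPM without, and Ifnar2 had 37.7, 37.5 and 37.9 CPM with CCL19 and 40.8, 40.4 and 37.8 CPM without. Neither chain followed the library order of the members. Both kinases of this receptor were fitted lower with CCL19. Jak1 had 819, 848 and 960 CPM with CCL19 and 1080, 909 and 992 CPM without (log2 fold change -0.18 ± 0.09; edgeR adjusted p = 0.22). Tyk2 had 139, 148 and 149 CPM and 176, 167 and 158 CPM (log2 fold change -0.20 ± 0.07; edgeR adjusted p = 0.104). In Tyk2 every CCL19 library lay below every library without CCL19, as in 14.5% of all tested genes. Irf7, the factor that amplifies interferon production, had 148, 239 and 193 CPM with CCL19 and 105, 163 and 218 CPM without. Irf9, the DNA-binding partner of STAT2, had 177, 208 and 196 CPM with CCL19 and 153, 185 and 206 CPM without. For both, CCL19 replicate 2 was the highest library and no-CCL19 replicate 1 the lowest, as in most members, and the edgeR adjusted p-values were 0.43 and 0.571. Of the 4 genes that DESeq2 called, Jak2 (adjusted p = 0.0216) had 434, 391 and 376 CPM with CCL19 and 285, 334 and 354 CPM without. Jak2 is not among the kinases named above for this receptor. Irf8 (adjusted p = 0.014) and the inhibitor Cish (adjusted p = 0.0432) were called higher and the kinase Ikbke (adjusted p = 0.0193) lower. In Jak2, Irf8 and Cish the highest library was CCL19 replicate 1, which had a median rank of 3 among the 6 libraries, counted from the lowest, over the members.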

How the data were processed

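Per the labels' protocols, a NucleoSpin kit gave the RNA and a TruSeq kit the libraries. The authors deposited whole-number read counts per gene for 6 libraries, with mm10 coordinates per the file headers. Per the submitters' processing notes, the tools were STAR 2.5, featureCounts 1.5.0-p1 of Subread and DESeq2 1.28.1, with the strand setting and the treatment of reads with several matches left unstated. A second table deposited by the authors names changed genes and their direction in words, without its threshold.

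From the counts, 11666 of 24470 genes passed edgeR's filterByExpr. The CCL19 and no-CCL19 groups came from the sample titles and were compared with edgeR 4.0.16 (TMM, quasi-likelihood F test, Benjamini-Hochberg, threshold 0.05) in R 4.3.3; DESeq2 1.42.0 and limma 3.58.1 (voom) were alternatives. Fold changes and SE come from edgeR, and their 95% intervals use its degrees of freedom. DESeq2 gave a larger SE for many scattered members, so that the intervals depend on the tool. Its SE was 0.825 against 0.472 for Mx1 and 0.587 against 0.324 for Ifit1. It was 0.133 in both tools for Ly6a and 0.0751 against 0.0801 for Slfn2. Log2 CPM used a prior count of 2. Transcript lengths and 50-base matches came from GENCODE M21 on the same assembly. The tests were tried on simulated counts. Other alternatives were other scalings and filters, a robust prior, a GC and length offset, a replicate block and each library left out. Over all tested genes, same-numbered libraries did not deviate together (r = -0.1638, 0.08139 and -0.02067), and the main fit did not take the numbers as pairs. Among the 45 tested members, replicate 1 was the lowest CCL19 library in 41 and lay below each other no-CCL19 library in 45. The highest of a group was mostly replicate 2 with CCL19 and, in 44 members, replicate 3 without. Whether the numbers mark pairs is therefore open for these genes.

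The members, the role groups and the other lists were chosen with earlier results of these data known. Values in every library are given for the 3 members of highest mean CPM per role group, the 6 of smallest p, the 6 of largest fold change and any member called by edgeR or DESeq2, and the rest by ranges. The 6 printed promoters and the other genes named were chosen after values were seen. Counting error is small at these depths, but it limits the lowest members.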

Additional observations from a re-analysis of the deposited data

How the results depend on the processing

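The median log2 fold change of the members was above 0 at 0.38 to 0.48 over the other scalings and filters, DESeq2, limma and the GC and length offset, and at 0.22 to 0.70 with each library left out. Counts of calls were less steady. Over all genes, edgeR called 0, DESeq2 called 1168, edgeR with no filter 1600 and edgeR with a robust prior 529, and leaving out 1 library gave 0 to 1599. Of the members, edgeR called 0, DESeq2 called 1, edgeR with no filter 30 and edgeR with a robust prior 0, and leaving out 1 library gave 0 to 13. The same leave-outs gave 1 to 29 members with groups that did not overlap, all higher with CCL19, against 16.9% to 24.1% of all genes; the count was 1 or 2 except for 11 without CCL19 replicate 1 and 29 without no-CCL19 replicate 3. DESeq2 with CCL19 replicates 1, 2 and 3 left out called 55, 123 and 1704 genes, and with no-CCL19 replicates 1, 2 and 3 left out 105, 1010 and 1258; it called 1 member (Bst2) without CCL19 replicate 3, 21 members without no-CCL19 replicate 3 and 0 in the other leave-outs, a combination chosen after seeing the data. The replicate block gave 0 calls over all genes and among members and a median of 0.44, with 34 members and 12.1% of all genes higher at an unadjusted p under 0.05. Signs turned for 4 named members: Slfn1 had -0.00546 with library totals alone and -0.0179 with the GC and length offset, and Slfn2 had -0.00795 with library totals alone. With single libraries left out, log2 fold changes ran from -0.0622 to 0.166 for Slfn1, from -0.0142 to 0.0663 for Slfn2, from -0.0256 to 0.235 for Ifit2 and from -0.0311 to 0.239 for Ifi27l2a. The causes were not tested, beyond the degrees of freedom given for the fit with no filter. Depth limits Ifi204 and Oas1g most.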
